A study of Mus musculus with 8 samples.

Results

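The Hox cluster genes are the 39 genes whose symbols in the deposited count table are Hoxa, Hoxb, Hoxc or Hoxd followed by a number, with antisense names left out, of 23337 genes in all. They were followed in RNA sequencing of bone marrow from C57BL/6 mice, 4 months old, in 4 groups of 2 libraries. TER119+ erythroblasts and lineage-negative, Kit+ progenitors were each taken from mice carrying JAK2V617F on 1 allele that were labelled Plek2+/+ or Plek2-/-. Every group therefore carries the JAK2 mutation, a kinase change that drives myeloproliferative neoplasms, and no library without it was compared here. Plek2 encodes pleckstrin-2, a protein of the actin skeleton in red cell precursors. Nothing in the labels ties the 2 libraries of each group to different mice, and p-values here therefore reflect the spread among these libraries, which may be technical.

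Hox genes encode homeodomain transcription factors that set position along the body axis and lie in 4 clusters, ordered by paralog number along the chromosome. In blood, genes of the A and B clusters are used by stem and early progenitor cells, and their expression falls as cells mature. HOX proteins bind DNA together with cofactors of the TALE family, PBX and MEIS, and Hoxa9 with Meis1 is a well-known pair in myeloid leukemia.

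The libraries held 16038035 to 23521726 counts. The erythroblast markers fitted the label. Of 14 measured, 14 were higher in erythroblasts under both Plek2 labels, against 36.0% and 37.5% of all genes tested. These markers summed to 52500 to 58000 CPM (reads scaled to a common library size with TMM factors) against 1650 to 1850 CPM in progenitors. Neutrophil markers were also present, at 13600 to 22600 CPM in erythroblasts and 4540 to 25700 CPM in progenitors. Plek2 itself had 1770 and 1894 reads in erythroblasts labelled Plek2+/+ and 616 and 781 in those labelled Plek2-/-, but 29 and 21 in progenitors labelled Plek2+/+ and 130 and 173 in those labelled Plek2-/-, which goes against the label in progenitors. Xist was at 2520 to 3040 CPM in every library labelled Plek2+/+ and at 2.13 to 3.6 CPM in every library labelled Plek2-/-, so sex and the Plek2 label cannot be told apart.

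The Hox reads came almost wholly from the A and B clusters. The A cluster (chromosome 6, 11 genes over 105.3 kb) held 1879 of the 2828 Hox reads of the 8 libraries and the B cluster (chromosome 11, 10 genes over 173.9 kb) held 940. The C cluster (chromosome 15, 9 genes over 115.8 kb) held 6 reads and the D cluster (chromosome 2, 9 genes over 96.8 kb) held 3. By gene, 12 members had 10 reads or more in all, 2 had 4 to 9, 8 had 1 to 3 and 17 had none in any library.

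Within the A cluster the reads stopped between Hoxa10 and Hoxa11. Hoxa2 to Hoxa10 all had reads, and Hoxa11 and Hoxa13, which pattern the limbs and the urogenital tract, had 0 in all 8 libraries. Within the B cluster they dropped between Hoxb4, with 658 reads, and its neighbour Hoxb5, with 5. Hoxb6, Hoxb7 and Hoxb8 had 1, 2 and 1 reads, Hoxb1 had 2, and Hoxb9 and Hoxb13 had 0, so that Hoxb2, Hoxb3 and Hoxb4 were the B members with 10 reads or more.

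To show the letters on both sides of these borders, the 250 bases upstream of the RefSeq start are given for Hoxa9, the A cluster member with the most reads, for Hoxa11, the first member beyond the border with 0 reads, for Hoxb4, and for Hoxb8, a B member beyond the drop with 1 read. They are from RefSeq on GRCm38.p6, 5′ to 3′ along the gene's own strand, with CpG pairs in capitals.

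Hoxa9, chr6:52227371-52227620, minus strand: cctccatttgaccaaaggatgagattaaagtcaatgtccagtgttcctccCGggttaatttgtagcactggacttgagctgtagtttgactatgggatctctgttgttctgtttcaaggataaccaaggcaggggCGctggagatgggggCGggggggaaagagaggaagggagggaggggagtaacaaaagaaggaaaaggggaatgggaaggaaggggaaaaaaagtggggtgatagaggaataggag

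Hoxa11, chr6:52245811-52246060, minus strand: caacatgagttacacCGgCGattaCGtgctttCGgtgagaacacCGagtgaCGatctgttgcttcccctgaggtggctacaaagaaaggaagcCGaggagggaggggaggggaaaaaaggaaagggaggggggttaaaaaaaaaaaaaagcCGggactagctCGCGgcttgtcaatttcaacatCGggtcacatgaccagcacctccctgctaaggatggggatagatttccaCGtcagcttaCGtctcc

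Hoxb4, chr11:96318017-96318266, plus strand: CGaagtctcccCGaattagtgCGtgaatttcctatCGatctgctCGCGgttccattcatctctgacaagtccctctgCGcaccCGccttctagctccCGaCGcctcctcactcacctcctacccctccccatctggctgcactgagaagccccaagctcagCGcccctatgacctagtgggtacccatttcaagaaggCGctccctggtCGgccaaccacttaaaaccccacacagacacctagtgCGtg

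Hoxb8, chr11:96281655-96281904, plus strand: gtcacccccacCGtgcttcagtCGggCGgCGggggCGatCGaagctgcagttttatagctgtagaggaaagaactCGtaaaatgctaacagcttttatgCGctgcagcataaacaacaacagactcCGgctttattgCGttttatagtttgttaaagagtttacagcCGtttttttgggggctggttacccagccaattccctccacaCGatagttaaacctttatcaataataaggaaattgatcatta

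These windows held 3, 13, 14 and 12 CpG pairs in that order, against a median of 6 (quartiles 2 and 16) over 32851 windows of the same length and kind. RefSeq windows were matched for 22 of the 39 members, 24 windows in all. Their CpG count ran from 3 to 28 in the 9 windows of members with 10 reads or more and from 2 to 35 in the 15 windows of members with fewer, so the ranges overlapped. Of short motifs searched on both strands, CCAAT was in 14 of the 24 windows and in 33.8% of all windows, TATAAA in 4 and in 12.4%, CACGTG in 4 and in 6.0%, TGATTNAT in 2 and in 2.8%, and AGATAA in 0 and in 10%. These matches describe the letters in the windows only.

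**Figure D1:**
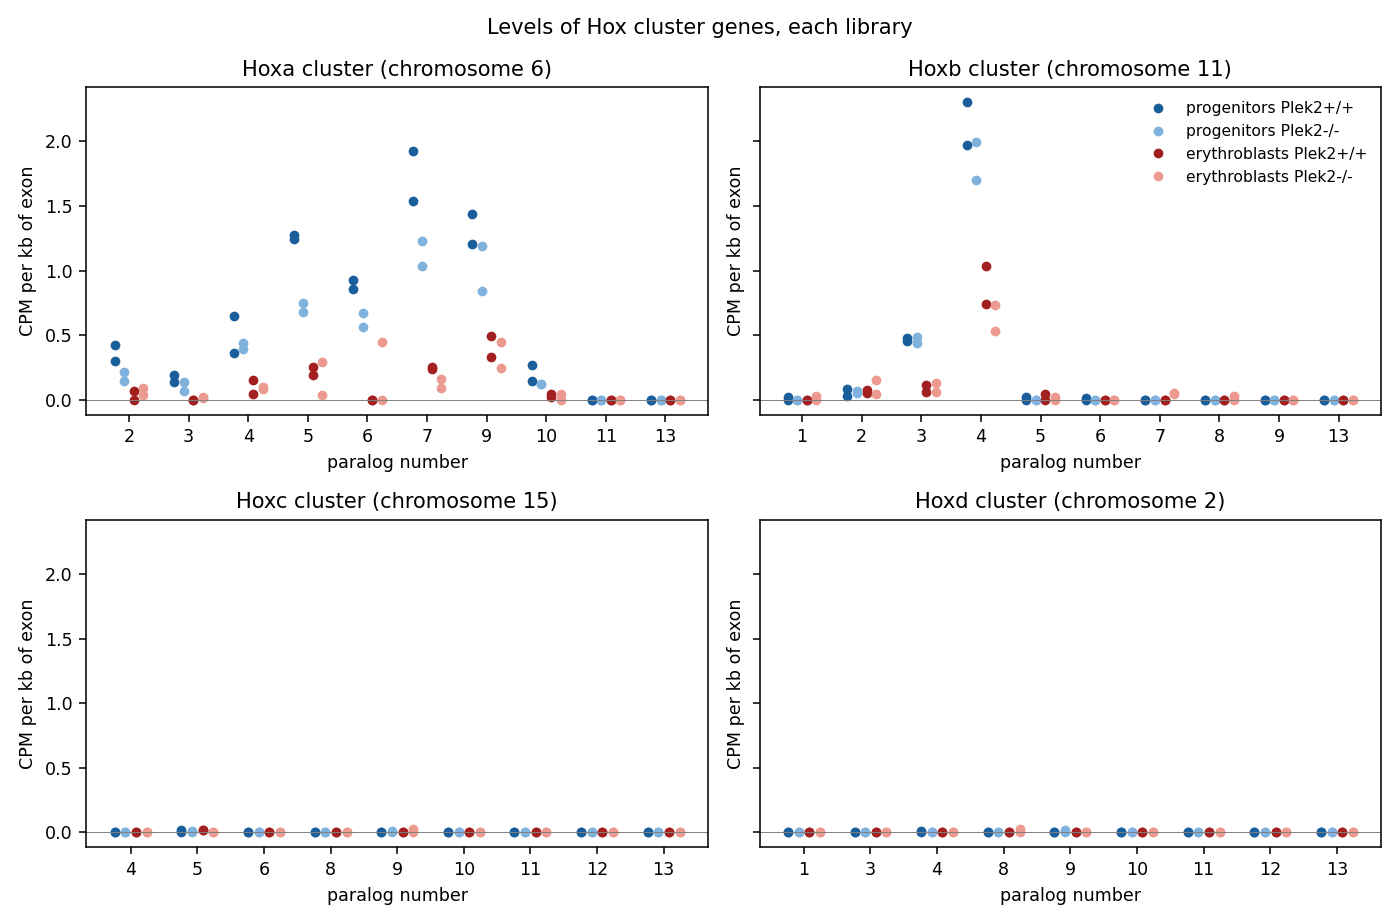
Level of the Hox genes reported here in every library, by cluster and paralog number, in CPM per kb of exon (points, 2 per group). Hoxb4, Hoxa7 and Hoxa9 stand highest in progenitors, and the C and D clusters lie at or near 0 throughout.

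For a member with 0 reads, a count of 0 allows up to 3 reads, which was 0.0982 to 0.235 CPM in a single library and 0.0181 CPM over all 8. Over the 4 progenitor libraries the limit was 0.028 CPM and over the 4 erythroblast libraries 0.0512 CPM. Per kb of exon the progenitor limit ran from 0.00664 CPM for Hoxd11 to 0.0271 CPM for the short Hoxc12, and the median progenitor level of Hoxa9 was 44.3 to 181 times the limits of the 17 members with 0 reads. These limits and the intervals given with shares cover counting error only. In GENCODE vM21, 62.3% of the exon bases of Hoxd3 and 52.3% of those of Hoxd4 overlap the other gene or Gm28230 on the same strand. Reads of the shared bases may not have been counted for Hoxd3 or Hoxd4. The single reads of Hoxd4, Hoxd8 and Hoxd9, the 2 of Hoxc9 and the 4 of Hoxc5 were too few to order groups.

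In progenitors the per-kb order of medians over the 4 libraries began with Hoxb4, a factor known for expanding stem cells in culture, at 1.98 CPM per kb (range 1.70 to 2.31). Hoxa7 followed at 1.38 (1.04 to 1.93), Hoxa9 at 1.20 (0.839 to 1.44), Hoxa5 at 0.993 (0.68 to 1.28) and Hoxa6 at 0.764 CPM per kb (0.562 to 0.926). Neighbours in that order overlapped. Hoxb3 came next at 0.463 CPM per kb (0.44 to 0.485), below every Hoxa6 value. Hoxa4 at 0.415, Hoxa2 at 0.262, Hoxa3 at 0.138, and Hoxa10 at 0.132 CPM per kb each overlapped the gene before it. Hoxb2, at 0.0616 CPM per kb (0.029 to 0.0808), lay below every Hoxa10 value. Measured per kb of the longest transcript, Hoxa9 came first at 2.07 and Hoxb4 and Hoxa7 were at 1.98 and 1.96 CPM per kb, so the order of these 3 depends on the length used. On that length Hoxb3 (0.586 to 0.647 CPM per kb) overlapped Hoxa6, and Hoxa3 at 0.321 stood above Hoxa2 at 0.262 CPM per kb. In erythroblasts Hoxb4 led at 0.735 CPM per kb, followed by Hoxa9 at 0.388, Hoxa5 at 0.224 and Hoxa7 at 0.20, and per kb of longest transcript Hoxa7 at 0.283 stood above Hoxa5.

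Of the Hox reads in progenitors, the A cluster gave 68.1% (95% exact binomial interval 66.2 to 69.9) and the B cluster 31.7% (29.9 to 33.6). In erythroblasts the shares were 55.8% (50.6 to 60.9) and 43.1% (38.0 to 48.3). These intervals cover counting error only, and the libraries varied by more: the A cluster share was 63.7, 48.0, 61.3 and 46.3% in the 4 erythroblast libraries and 70.8, 70.9, 68.7 and 61.1% in the 4 progenitor libraries. The populations overlapped in this share. By gene, Hoxa7 gave 17.5% of the Hox reads in progenitors and 8.63% in erythroblasts, while Hoxb4 gave 22.1% and 30.7% and Hoxa9 27.8% and 33.4%.

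All Hox genes together were lower in erythroblasts than in progenitors. Their summed level was 6.91 and 6.65 CPM in erythroblasts labelled Plek2+/+ and 7.27 and 4.55 CPM in those labelled Plek2-/-. In progenitors it was 28.4 and 24.8 CPM under the Plek2+/+ label and 20.7 and 19.1 CPM under the Plek2-/- label. Every progenitor library lay above every erythroblast library. In bulk samples, fewer cells of a type and less RNA per cell cannot be told apart.

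Gene by gene, 10 of the 39 members had enough reads to be tested in the fit over all 8 libraries, and all 10 were lower in erythroblasts labelled Plek2+/+ (edgeR's quasi-likelihood test, Benjamini-Hochberg adjusted p below 0.05), where 37.8% of all 13365 genes tested were called lower. Both erythroblast libraries lay below both progenitor libraries for all 10 under each label, as they did for 46.5% and 45.8% of all genes. Under the Plek2-/- label 8 of the 10 were lower, against 39.2% of all genes. The comparisons under the 2 labels use different libraries. Most of these members passed the filter through their progenitor reads, so the counts describe the tested members and not all 39. Hoxa9 and Hoxb4 are the members that also had enough reads to be tested among erythroblasts alone. The median log2 change of the 10 was -2.63 and -2.15, against -0.06 and -0.07 over all genes tested.

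Hoxa9 stood at 8.03 and 6.71 CPM in progenitors labelled Plek2+/+ and at 6.66 and 4.68 CPM in those labelled Plek2-/-, against 2.75 and 1.83 CPM and 2.5 and 1.36 CPM in erythroblasts of the same labels. No erythroblast library reached a progenitor library. The log2 change was -1.66 (SE 0.28, edgeR adjusted p = 0.000133) under the Plek2+/+ label and -1.57 (SE 0.30, edgeR adjusted p = 0.000389) under the Plek2-/- label.

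Hoxb4 was at 5.91 and 5.06 CPM in progenitors labelled Plek2+/+ and at 4.36 and 5.11 CPM in those labelled Plek2-/-. Its erythroblast levels were 1.90 and 2.65 CPM and 1.88 and 1.36 CPM, again with no overlap. The log2 change was -1.27 (SE 0.24, edgeR adjusted p = 0.0003) and -1.56 (SE 0.26, edgeR adjusted p = 0.000107). These were smaller falls than those of Hoxa7, though the differences between genes were not tested.

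Hoxa7, which lies next to Hoxa9, was at 5.54 and 4.42 CPM in progenitors labelled Plek2+/+ and 3.54 and 2.98 CPM in those labelled Plek2-/-. In erythroblasts it was at 0.734 and 0.679 CPM and at 0.469 and 0.272 CPM, below all progenitor values. The log2 change was -2.79 (SE 0.30, edgeR adjusted p = 1.87e-06) and -3.14 (SE 0.37, edgeR adjusted p = 4.23e-06). In GENCODE vM21, 20.4% of its exon bases lie opposite the antisense gene Hoxaas3, and since the strand setting of the counting is not given in the sources used here, their reads cannot be told apart.

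Hoxb3 was at 2.02 and 1.92 CPM and at 1.87 and 2.06 CPM in progenitors of the 2 labels, and at 0.245 and 0.475 CPM and 0.548 and 0.272 CPM in erythroblasts. The populations did not overlap. Its log2 change was -2.45 (SE 0.41, edgeR adjusted p = 0.000119) and -2.28 (SE 0.41, edgeR adjusted p = 0.000202). Of its exon bases 52.9% lie opposite Hoxb3os, so this value may hold reads of both genes.

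Hoxa5 was at 2.39 and 2.33 CPM and at 1.40 and 1.28 CPM in progenitors, and at 0.367 and 0.475 CPM and 0.548 and 0.068 CPM in erythroblasts. The populations were again apart, and the 2 erythroblast libraries labelled Plek2-/- differed widely from each other. The log2 change was -2.48 (SE 0.44, edgeR adjusted p = 0.000215) and -2.17 (SE 0.53, edgeR adjusted p = 0.00233).

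Hoxa3 and Hoxa6 had no read in either erythroblast library labelled Plek2+/+. Hoxa3 had 52 reads in the matching progenitors, at 0.845 and 1.15 CPM, and Hoxa6 had 40, at 0.751 and 0.809 CPM. Set against 3 counts over the erythroblast group, the observed progenitor level was 10.6-fold higher for Hoxa3 and 8.13-fold higher for Hoxa6. These ratios leave out the counting error of the progenitor reads. Both genes were called lower in erythroblasts (edgeR adjusted p = 0.000135 and 0.000982). Under the Plek2-/- label Hoxa3 was at 0.428 and 0.819 CPM in progenitors and 0.0782 and 0.136 CPM in erythroblasts, a log2 change of -2.48 (SE 0.75, edgeR adjusted p = 0.00952). That call was lost without erythroblast replicate 1 or progenitor replicate 2 (edgeR adjusted p = 0.0574 and 0.0781). Of the exon bases of Hoxa3, 25.4% lie opposite antisense genes.

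Hoxa6 was at 0.584 and 0.491 CPM in progenitors labelled Plek2-/-, and in erythroblasts its 5 reads all came from replicate 1, at 0.391 and 0 CPM. Its log2 change under that label was -1.52 (SE 0.79, edgeR adjusted p = 0.0983) and did not pass. Without erythroblast replicate 1 labelled Plek2-/- it passed (edgeR adjusted p = 0.00638), as it did with limma-voom and on library totals (adjusted p = 0.0274 and 0.0146).

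Of the members with fewer reads, Hoxa2, Hoxa4 and Hoxa10 were lower in erythroblasts labelled Plek2+/+ by log2 changes of -3.18, -2.23 and -2.78 (edgeR adjusted p = 0.00342, 0.00622 and 0.00546). Under the Plek2-/- label Hoxa4 and Hoxa10 had changes of -2.13 and -2.33 (edgeR adjusted p = 0.0122 and 0.0382), and Hoxa2 had -1.51 and did not pass (edgeR adjusted p = 0.124, and 0.0205 on library totals). Under the Plek2+/+ label the Hoxa4 call was lost without erythroblast replicate 2 or progenitor replicate 1 (edgeR adjusted p = 0.0774 and 0.0505), and the Hoxa10 call without erythroblast replicate 1 or progenitor replicate 2 (0.0719 and 0.0695, edgeR adjusted p). Under the Plek2-/- label the Hoxa4 call was lost without erythroblast replicate 2 and with DESeq2 (adjusted p = 0.0738 and 0.0531). The Hoxa10 call there was lost without erythroblast replicate 2 or either progenitor replicate (edgeR adjusted p = 0.275, 0.0787 and 0.0881) and with DESeq2 (0.106).

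Hoxb2 had 21 reads in progenitors and 17 in erythroblasts, a counting ratio of 0.675 (95% interval 0.339 to 1.36), where Hoxb3 next to it had 211 and 22 reads and a ratio of 5.24 (3.37 to 8.54). The difference between these genes was not tested across libraries, and 27.3% of the exon bases of Hoxb2 lie opposite Hoxb3os. These ratios use TMM-scaled totals. On library totals the mean Hoxb2 level was 0.254 and 0.282 CPM in progenitors labelled Plek2+/+ and Plek2-/-. In erythroblasts of the same labels it was 0.171 and 0.266 CPM, so the direction of Hoxb2 depends on the scaling.

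**Figure D2:**
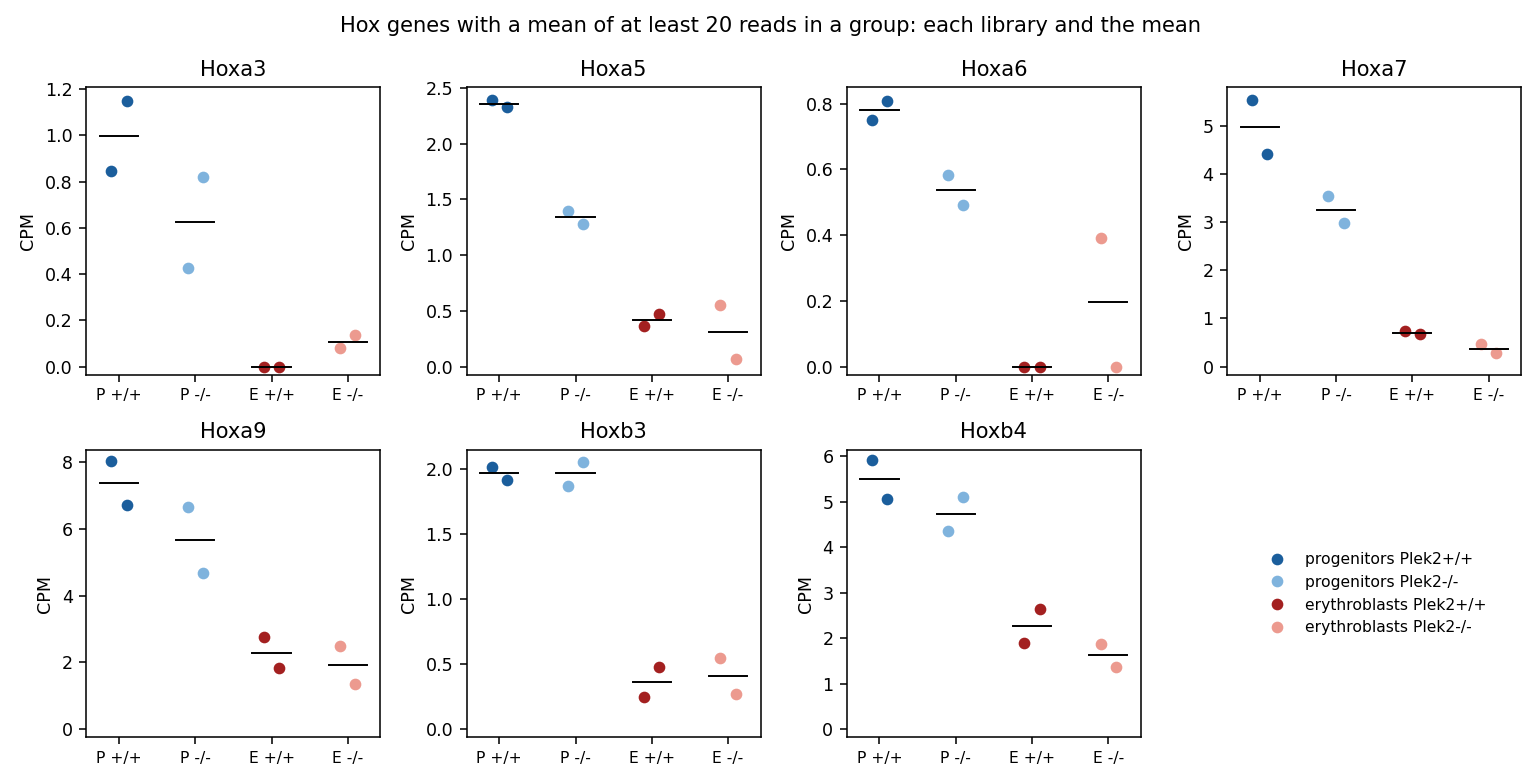
CPM of the 7 Hox genes with a mean of at least 20 reads in a group, in every library (points) with the group mean (line), for progenitors (P) and erythroblasts (E). Each progenitor library lies above each erythroblast library in all 7 panels.

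**Figure D3:**
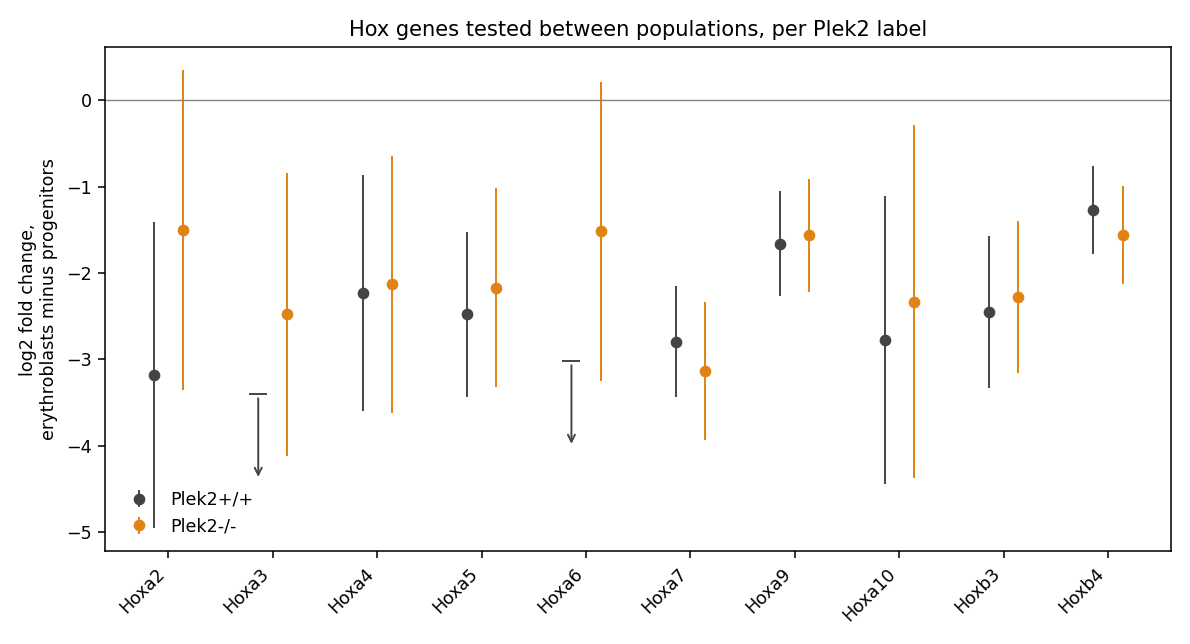
log2 fold change of the 10 tested Hox genes, erythroblasts minus progenitors, with 95% confidence intervals, under the Plek2+/+ and Plek2-/- labels. Arrows give the bounds of Hoxa3 and Hoxa6, which had no read in erythroblasts labelled Plek2+/+, and the intervals of Hoxa2 and Hoxa6 under the Plek2-/- label cross 0.

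The stem and progenitor markers moved the same way. Of 18 measured markers, 16 were lower in erythroblasts labelled Plek2+/+ and 17 in those labelled Plek2-/-, against 37.8% and 39.2% of all genes tested. Lmo2, which red cell precursors also use, was higher under both labels. The 18 markers summed to 1240 to 1420 CPM in erythroblasts and 3470 to 4520 CPM in progenitors, and none was at 0 in erythroblasts. Their log2 changes ran from -3.44 (Hlf) to 1.93 (Lmo2), with a median of -1.74, under the Plek2+/+ label, and had a median of -2.12 under the Plek2-/- label. Neutrophil markers stood at 19500 and 22600 CPM in erythroblasts labelled Plek2+/+ and 15100 and 13600 CPM in those labelled Plek2-/-. Of 14 measured, 12 were higher than in progenitors under the Plek2+/+ label and 14 were lower under the Plek2-/- label. Of 12 monocyte and macrophage markers 8 were higher and 4 lower in erythroblasts under both labels. Over all genes tested 36.0% and 37.5% were called higher. The part of cells with any of these markers in the Hox values was not tested.

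Between the Plek2 labels, no Hox gene passed the test in progenitors. Of the 10 members tested 0 were called by edgeR, where 4.91% of all 13168 genes were, and DESeq2 and limma-voom also called 0. At an unadjusted p below 0.05 there were 2 of 10, against 17.3% of all genes. The values of 9 of the 10 were negative, that is lower in the libraries labelled Plek2-/-, against 52.7% of all genes.

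The A cluster summed to 20.1 and 17.6 CPM in progenitors labelled Plek2+/+ and 14.2 and 11.7 CPM in those labelled Plek2-/-, without overlap. The B cluster summed to 8.26 and 7.18 CPM and to 6.46 and 7.37 CPM, with overlap. By gene, both libraries labelled Plek2-/- lay below both labelled Plek2+/+ for 7 of the 10 tested members, all in the A cluster, namely Hoxa2, Hoxa3, Hoxa5, Hoxa6, Hoxa7, Hoxa9 and Hoxa10, where 33.2% of all genes did so. Only Hoxb3 and Hoxb4 of the 10 tested members are in the B cluster, and the A cluster was not tested against the B cluster.

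The smallest p belonged to Hoxa5, whose levels are given above and which had a log2 change of -0.78 (SE 0.23, edgeR adjusted p = 0.113). Hoxa7 had -0.56 (SE 0.20, edgeR adjusted p = 0.182), and these 2 were the members below 0.05 before adjustment. Hoxa9 had -0.34 (SE 0.20, edgeR adjusted p = 0.453). Hoxb4 had -0.16 (95% interval -0.55 to 0.23) and Hoxb3 0.05 (-0.46 to 0.55), whose sign changed when library totals replaced TMM. With no filter on low counts Hoxa5 and Hoxa7 passed (edgeR adjusted p = 0.0492 and 0.0477), and without progenitor replicate 1 labelled Plek2-/- Hoxa7 and Hoxa9 did (edgeR adjusted p = 0.0365 and 0.0221).

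The neutrophil markers differed between the same libraries. All 14 measured were higher in progenitors labelled Plek2-/-, where 4.5% of all genes were called higher. These markers summed to 19100 and 25700 CPM, against 7580 and 4540 CPM under the Plek2+/+ label. The stem and progenitor markers summed to 3470 and 4090 CPM in progenitors labelled Plek2-/- and to 4210 and 4520 CPM in those labelled Plek2+/+. Of these 18 markers edgeR, DESeq2 and limma-voom called 0, where edgeR called 4.91% of all genes. By edgeR 5 had an unadjusted p below 0.05, against 17.3% of all genes. The part of these markers in the Hox values was not tested.

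In erythroblasts 2 members could be tested between the labels, and 0 were called by edgeR, DESeq2 or limma-voom, where edgeR called 2.84% of all 12241 genes. At an unadjusted p below 0.05 there were also 0, against 14.7% of all genes. Hoxa9 had a log2 change of -0.27 (95% interval -1.06 to 0.53) and Hoxb4 -0.48 (-1.22 to 0.26). Both Hoxb4 values under the Plek2-/- label lay below both under the Plek2+/+ label, as for 23.9% of all genes, while those of Hoxa9 overlapped. Without erythroblast replicate 1 labelled Plek2+/+, or replicate 2 labelled Plek2-/-, the Hoxa9 value turned positive (0.07 and 0.12). Of 14 neutrophil markers 9 were lower here, against 2.66% of all genes, with summed levels of 15100 and 13600 CPM against 19500 and 22600 CPM. The part of the neutrophil markers in the Hox values was not tested. The difference of the label effect between the 2 populations was called for 0 of 10 members by edgeR, DESeq2 and limma-voom, against 5.55% of all genes by edgeR, with 2 (Hoxa3 and Hoxa6) at an unadjusted p below 0.05, against 18.2% of all genes. Both rest on the erythroblast group with no reads.

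**Figure D4:**
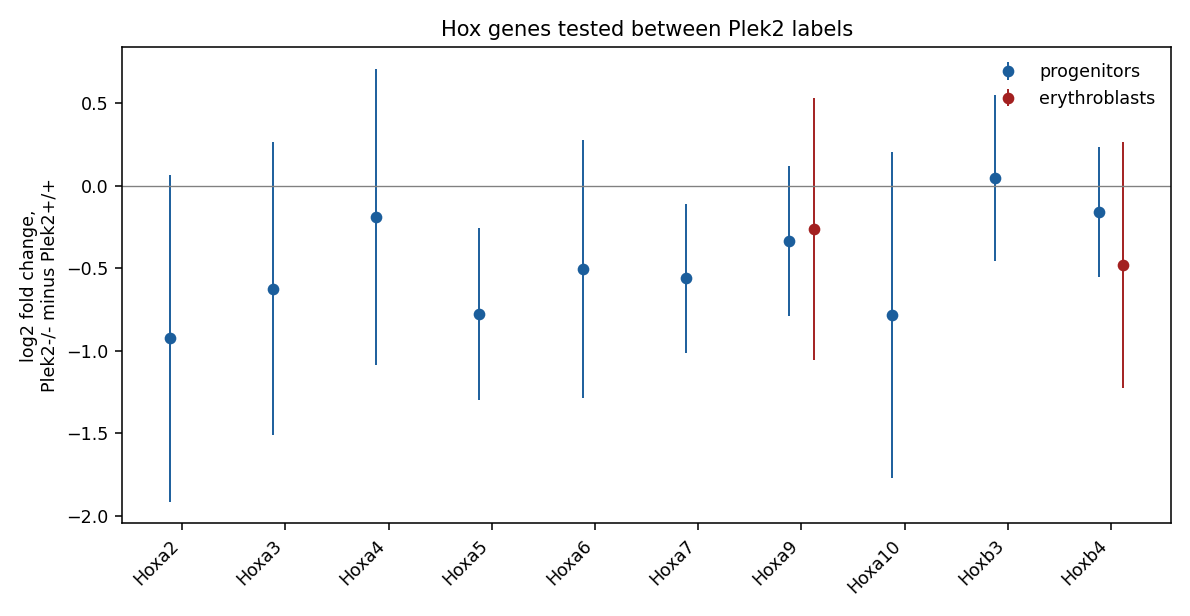
log2 fold change of tested Hox genes, libraries labelled Plek2-/- minus Plek2+/+, with 95% confidence intervals, in progenitors (10 genes) and erythroblasts (2 genes). The intervals of Hoxa5 and Hoxa7 in progenitors lie below 0 before adjustment for all genes tested.

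The TALE cofactors did not move as 1 group. Of 8 tested, 4 were lower and 2 higher in erythroblasts under both labels (edgeR). Over all genes tested, 37.8% were called lower and 36.0% higher under the Plek2+/+ label, and 39.2% and 37.5% under the Plek2-/- label. Meis1, the usual partner of Hoxa9, was at 33.3 and 30.5 CPM and 28.3 and 30.4 CPM in progenitors and at 6.36 and 4.75 CPM and 5.16 and 4.01 CPM in erythroblasts, with no overlap. Its log2 change was -2.51 (SE 0.15, edgeR adjusted p = 6.56e-09) under the Plek2+/+ label and -2.69 (SE 0.16, edgeR adjusted p = 5.31e-09) under the Plek2-/- label. Pbx3 went the other way, from 3.71 to 4.75 CPM in progenitors to 17.9 to 22.6 CPM in erythroblasts, with changes of 2.19 and 2.36 (edgeR adjusted p = 6.27e-08 and 2.56e-08).

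Between the Plek2 labels in erythroblasts edgeR, DESeq2 and limma-voom called 0 of 7 cofactors, where edgeR called 2.84% of all genes. By edgeR 1 had an unadjusted p below 0.05, against 14.7% of all genes. In progenitors each of the 3 tools called 1 of 8, higher under the Plek2-/- label, where edgeR called 4.91% of all genes. At an unadjusted p below 0.05 there were 2 by edgeR, against 17.3% of all genes.

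**Figure D5:**
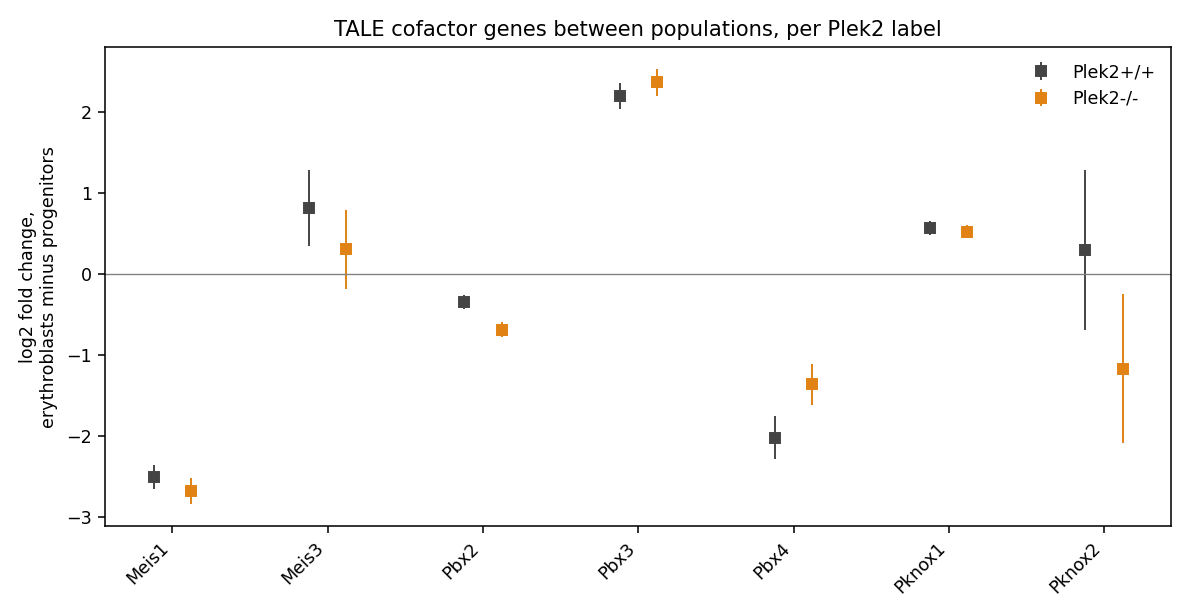
log2 fold change of 7 tested TALE cofactor genes, erythroblasts minus progenitors, with standard errors, under both Plek2 labels. Meis1 lies near -2.51 and -2.69, and Pbx3 near 2.19 and 2.36.

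Genes that keep Hox clusters active were mixed. Of 16 tested members of the MLL, DOT1L and CDX list, 5 were higher and 6 lower in erythroblasts labelled Plek2+/+. Under the Plek2-/- label 8 were higher and 5 lower. Of all genes tested 36.0% were called higher and 37.8% lower under the Plek2+/+ label, and 37.5% and 39.2% under the Plek2-/- label. Mllt3, which binds acylated histones and recruits DOT1L, was higher by 2.31 and 2.44 on the log2 scale (edgeR adjusted p = 2.27e-11 and 1.34e-11), and Psip1, which tethers the MLL complex to chromatin, by 1.47 and 1.65 (5e-09 and 1.48e-09). Cdx1, Cdx2 and Cdx4, activators of Hox genes in embryos, had no read in any library. Between the Plek2 labels edgeR, DESeq2 and limma-voom called 0 of 16 in either population. Over all genes edgeR called 2.84% in erythroblasts and 4.91% in progenitors. At an unadjusted p below 0.05 there were 2 in erythroblasts and 1 in progenitors, against 14.7% and 17.3% of all genes.

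On the Polycomb list, whose complexes keep Hox genes silent, 6 were higher and 13 lower of 21 tested in erythroblasts under both labels. The shares over all genes tested were 36.0% higher and 37.8% lower under the Plek2+/+ label, and 37.5% and 39.2% under the Plek2-/- label. The Polycomb list also holds 2 demethylases that remove the Polycomb mark, X-linked Kdm6a and Kdm6b, and they moved in opposite directions. Kdm6a was higher by 1.78 and 1.70 on the log2 scale (edgeR adjusted p = 2.5e-10 and 4.16e-10), and Kdm6b was lower, with log2 changes of -1.54 and -1.73 (edgeR adjusted p = 7.21e-07 and 1.74e-07). Between the labels edgeR called 2 of 20 tested genes of the list in erythroblasts, against 2.84% of all genes. In progenitors edgeR called 1 of 21, against 4.91% of all genes. These edgeR calls on the list were all lower under the Plek2-/- label, and DESeq2 called 2 in each population. Of these, Kdm6a was lower under the Plek2-/- label in erythroblasts (-0.80, edgeR adjusted p = 0.0017) and in progenitors (-0.69, 0.00159), beside the Xist difference given above.

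Of 15 tested genes listed as HOX and MEIS1 targets in leukemia, 11 were lower and 3 higher in erythroblasts labelled Plek2+/+. Under the Plek2-/- label 12 were lower and 3 higher. All genes tested had shares of 37.8% lower and 36.0% higher under the Plek2+/+ label, and 39.2% and 37.5% under the Plek2-/- label. Cd34, a surface marker of progenitors, changed by -3.33 and -3.42 (edgeR adjusted p = 1.83e-11 and 2.02e-11) and Pim1, a survival kinase, by 2.29 and 2.34 (1.2e-10 and 9.63e-11). Several of the listed targets are also on the stem and progenitor list. Between the Plek2 labels in progenitors each of the 3 tools called 2 of 15, where edgeR called 4.91% of all genes. By edgeR these were the immediate-early gene Fos and the inhibitor of DNA binding Id2. They were higher under the Plek2-/- label by 1.0 and 0.50 (edgeR adjusted p = 0.000525 and 0.00792). At an unadjusted p below 0.05 there were 7 by edgeR, against 17.3% of all genes. In erythroblasts edgeR called 0 of 15, against 2.84% of all genes, and DESeq2 and limma-voom called 1. There 8 had an unadjusted p below 0.05 by edgeR, against 14.7% of all genes.

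Genes on both sides of the clusters were followed as well. Of 18 flanking genes tested, 12 were higher in erythroblasts under both labels, with 3 lower under the Plek2+/+ label and 4 under the Plek2-/- label. Of all genes tested 36.0% and 37.5% were called higher and 37.8% and 39.2% lower under the Plek2+/+ and Plek2-/- labels. Nfe2, an erythroid and megakaryocytic factor whose gene lies 211.4 kb from the C cluster, stood at 416 to 461 CPM in erythroblasts and 82.5 to 93.0 CPM in progenitors (log2 changes 2.41 and 2.29, edgeR adjusted p = 2.72e-11 and 4.21e-11), while the C cluster itself had 6 reads in all 8 libraries. Calcoco1, 198.9 kb from the cluster on its other side, was higher by 2.32 and 2.19 (edgeR adjusted p = 3.71e-08 and 5.23e-08). Evx1 and Evx2, homeobox genes at the ends of the A and D clusters, had no read in any library. Between the Plek2 labels edgeR, DESeq2 and limma-voom called 0 flanking genes. Over all genes edgeR called 2.84% in erythroblasts and 4.91% in progenitors. An unadjusted p below 0.05 was met by 2 of 17 in erythroblasts, against 14.7% of all genes. In progenitors it was met by 5 of 18, against 17.3%.

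Of 20 noncoding genes listed for the clusters, 8 were in the table and 0 had enough reads to be tested. Mir196b, which lies at Hoxa9, had 5 reads over the 8 libraries and Mir10a, which lies near Hoxb4, had 3. Hotair, Hoxa11as, Mir10b, Mir196a-1, Mir196a-2 and Mir615 had 0.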

How the data were processed

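RNA of purified erythroblasts and progenitors was sequenced on an Illumina HiSEQ4000. The authors deposited raw counts per gene and a table of normalized signal, which equals the counts divided by 1 size factor per library and was used only for that factor. Per the submitters' processing notes the build was mm10 and the tools were HTSeq 0.6.1pl, STAR 2.5.2a, DESeq2 1.14.1 and cutadapt 1.13. The sources used here give neither the annotation nor the strand setting. Counts were tested with edgeR 4.0.16 (quasi-likelihood, TMM scaling, filterByExpr, Benjamini-Hochberg over all genes, adjusted p below 0.05) in R 4.3.3. The Plek2 labels were compared within each population, and the populations in 1 fit of 4 groups. CPM uses TMM-scaled totals, and per-kb levels use exon unions of GENCODE vM21. Full values are given for members with a mean of at least 20 reads in a group that passed the filter, and for each list the 2 called genes of lowest adjusted p. Alternatives were DESeq2 1.42.0, limma-voom (limma 3.58.1), other scalings and filters, a replicate block and leaving out each library. The fits were also run on simulated counts. The changed genes there excluded those with few reads, so this says nothing of members with few reads. Members and lists were chosen with earlier results of these data known. Some genes of these lists are not reported here.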

Additional observations from a re-analysis of the deposited data

How the results depend on the processing

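Between populations the directions of all tested Hox genes held under every alternative that gave a value. The calls were 10 of 10 under the Plek2+/+ label and 8 of 10 under the Plek2-/- label, and leaving out single libraries gave 9 and 6 to 8. Library totals without TMM moved the median of all genes by -0.81 and -0.79 on the log2 scale, and 81.3% of calls were then lower under the Plek2+/+ label against 51.2%. In progenitors the count of members called between labels went from 0 to 2 with no filter, and ranged from 0 to 2 with single libraries left out. Of all progenitor calls 8.2% were lower, and 20.2% on library totals. Summed Hox CPM on library totals was 5.12 in erythroblasts labelled Plek2+/+, 35.3 in progenitors labelled Plek2+/+ and 26.1 in those labelled Plek2-/-, and per kb of longest transcript the sums were 2.60, 11.4 and 8.30. Hoxb3 in progenitors changed sign on library totals (-0.015), as did the Hoxa5 interaction with limma-voom (-0.112), and the cause was not tested. With single libraries left out, label effects that changed sign ran from -0.757 to 0.118 for Hoxa9 in erythroblasts, and in progenitors from -0.604 to 0.244 for Hoxa4 and from -0.029 to 0.111 for Hoxb3. Their difference between populations ran from -3.402 to 1.427 for Hoxa10, -0.529 to 1.212 for Hoxa4, -1.75 to 1.137 for Hoxa5, -0.423 to 0.432 for Hoxa9 and -0.418 to 0.659 for Hoxb3. Where this leaves 1 library in a group, that library is assumed to vary like the others. The replicate block gave 0, 0, 10, 8 and 0 members called, as without it. The differences between replicates 1 and 2 correlated at -0.075 to 0.104 between groups. With 1 such difference per group, this cannot decide whether same-numbered libraries share a mouse or a day. Depth limits 27 members with fewer than 10 reads.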
